A study of Mus musculus with 4 samples.

Results

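The transcripts of Spp1, which encodes the secreted glycoprotein osteopontin, and of Cd44, which encodes its cell-surface receptor CD44, were followed in sorted cardiac myeloid cells of the uninjured and the infarcted mouse heart. The members were chosen by symbol, and these 2 genes are 2 of the 31053 genes in each of the 4 libraries. Cells expressing EGFP under the Csf1r promoter (CSF1R-EGFP+ mice, aged 12 to 16 weeks) and lacking surface Ly6G were sorted from digested hearts and profiled with droplet 3' single-cell RNA sequencing, and the submitters labelled them macrophages. The baseline group is 1 library in which 3 hearts without surgery were pooled, and the infarct group is 3 libraries of 1 heart each, taken 7 days after ligation of the left coronary artery with the tissue remote from the infarct cut away. All groups carry the reporter, which marks monocytes and some dendritic cells and granulocytes as well as macrophages, and the Ly6G gate removes most neutrophils. With 1 pooled baseline library, infarct against baseline has no replicate check. The 3 infarct libraries are separate hearts, so comparisons between cell types within the infarct could be tested over hearts.

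Osteopontin is a phosphorylated matricellular protein that is scarce in the healthy myocardium and is made by macrophages after injury. An Arg-Gly-Asp (RGD) motif in its middle binds integrins such as αvβ3 and αvβ5, a neighbouring site that thrombin and matrix metalloproteinases expose binds α4 and α9 integrins, and its C-terminal part has been described as a ligand of CD44. CD44 is above all a receptor for hyaluronan, works with CD74 as a receptor for the cytokine MIF, and is tied to the actin cytoskeleton by the ezrin, radixin and moesin proteins.

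Spp1 lies on the forward strand of mm10 at chr5:104435118-104441050 and has 7 protein-coding transcripts of 4 to 8 exons in GENCODE vM21. It overlaps Gm42793, a predicted gene on the same strand, so reads in the shared stretch are uncertain. The integrin-binding part of Spp1 is shown because the integrin receptors are described with Cd44. It is coding sequence of exon 6 of 7 in transcript Spp1-201 at chr5:104439481-104439510 (mm10, forward strand), is held by 5 of the 7 coding transcripts, and the capitals mark the 3 codons for Arg, Gly and Asp:
Spp1 RGD coding stretch: CGAGGTGATagcttggcttatggactgagg
Cd44 lies on the reverse strand at chr2:102811141-102901665 and has 8 protein-coding transcripts of 9 to 19 exons, made from 30 distinct exons. Counting at the 3' end cannot tell these splice forms apart, so every Cd44 value is a sum over them. The 250 bases before a RefSeq start of each gene (build GRCm38.p6) are shown because the genes were highest in different cell types. Spp1 has a further RefSeq start inside the gene that is not shown. Capitals mark a TATA box (TATAAA), a RUNX motif (TGTGGT, here as its reverse complement ACCACA) and a PU.1 motif (GAGGAA or its reverse complement TTCCTC), searched on both strands, and none of them overlaps another:
Spp1, chr5:104434861-104435110, forward strand: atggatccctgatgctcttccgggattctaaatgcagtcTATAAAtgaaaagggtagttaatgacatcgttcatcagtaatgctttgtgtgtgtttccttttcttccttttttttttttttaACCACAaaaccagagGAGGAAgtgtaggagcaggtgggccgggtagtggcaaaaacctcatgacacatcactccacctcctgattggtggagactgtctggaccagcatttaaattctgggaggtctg
Cd44, chr2:102901666-102901915, reverse strand: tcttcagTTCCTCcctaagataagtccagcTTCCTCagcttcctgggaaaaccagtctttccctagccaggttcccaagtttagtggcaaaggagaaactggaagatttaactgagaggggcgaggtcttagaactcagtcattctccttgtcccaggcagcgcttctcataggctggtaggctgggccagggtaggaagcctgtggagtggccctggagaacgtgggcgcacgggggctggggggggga
The Spp1 window held 1 RUNX motif, beginning 128 bases before the start, 1 PU.1 motif at 113 bases and 1 TATA box at 211 bases, and its GC content was 43.6%. The Cd44 window held 2 PU.1 motifs, at 243 and 220 bases, and neither a RUNX motif nor a TATA box, and its GC content was 56.4%. Of 32536 mouse promoter windows of this length, 13.96% held the RUNX motif, 23.36% the PU.1 motif and 12.31% the TATA box. These are matches of letters and say nothing of binding.

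After the cell filter 10117 to 10782 cells remained per library, with a median of 6398.5 unique molecular identifiers (UMIs) per cell at baseline and 8469.5 to 8556.5 in the infarcts. Any pair of libraries shared 26 to 34 cell barcodes. All 8 macrophage markers were detected in each library and their summed level was 22441 CPM (the usual depth-scaled UMI count, taken relative to the total of the summed cells with mitochondrial genes left out) at baseline and 40091 to 56492 in the infarcts, while T- or NK-cell markers summed to at most 2.29 CPM. Cells were named by how many markers of fixed lists they showed, and neither Spp1 nor Cd44 was in any list. "X-like" stands for such a gate. Of the gates, 13 had at least 20 cells in every infarct library and were tested.

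Spp1 stood among the genes with the highest ratio of infarct to baseline libraries, and Cd44 did not differ beyond the spread between hearts. Spp1 stood at 149 CPM in the baseline library, with a 95% Poisson interval of 147 to 152 that covers counting error only, and at 1348, 1531 and 1050 CPM in the 3 infarct libraries. Every infarct library was at least 2-fold above baseline. Of the 3132 genes whose infarct mean and baseline level averaged 50 CPM or more, 1.37% reached that mark. The log2 ratio of the infarct mean (1310 ± 243 CPM, SD, n = 3) over baseline was 3.13, the seventh highest of those genes, against a median of -0.11 over all of them. Cd44 stood at 274 CPM at baseline (interval 270 to 278) and at 297, 181 and 215 CPM in the infarct libraries. Infarct replicate 1 was above the baseline library and infarct replicates 2 and 3 were below it. The log2 ratio of the Cd44 infarct mean (231 ± 59.5 CPM) was -0.25. TMM scaling, which trims genes of extreme ratio or level before the scale is set, moved the Cd44 ratio to 0.04 and the Spp1 ratio to 3.42. No Cd44 value reached 2-fold in either direction, while 3.19% of genes were at least 2-fold lower in all 3 infarct libraries.

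**Figure D1:**
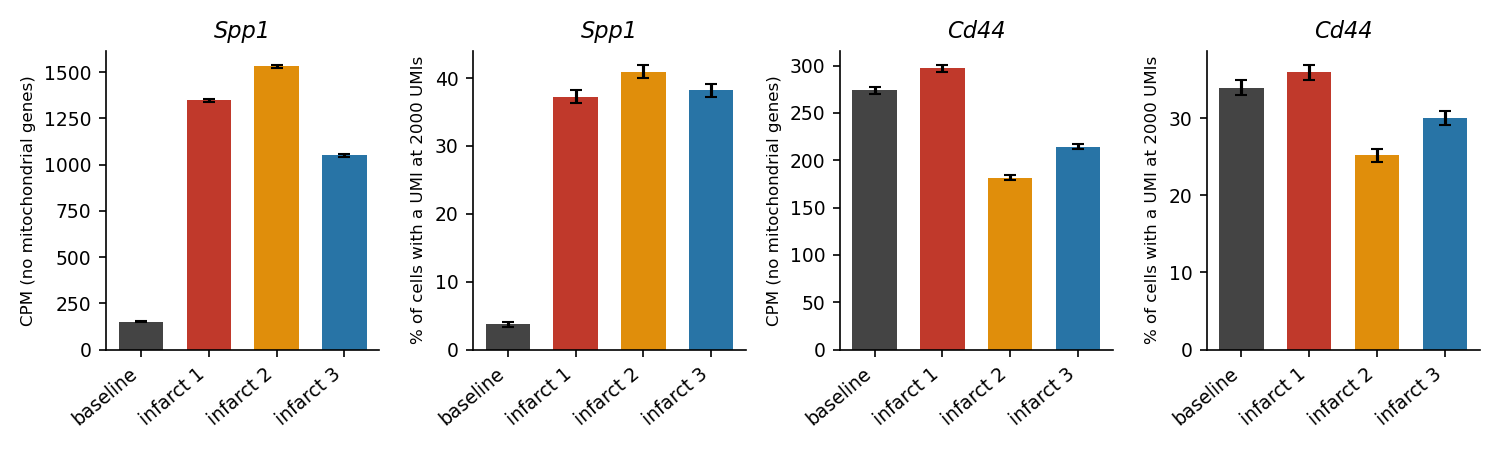
Spp1 and Cd44 in the 4 libraries, as CPM of summed UMIs without mitochondrial genes and as the percent of cells with at least 1 UMI after each cell was thinned to 2000 UMIs; bars are libraries and whiskers are exact 95% intervals for counting error. The 3 infarct bars of Spp1 lie far above baseline, and those of Cd44 lie on both sides of it.

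The difference in Spp1 was seen in the share of cells as well as in the level. After thinning to 2000 UMIs, Spp1 was detected in 3.70% of baseline cells (333 of 8991) and in 37.2%, 40.95% and 38.2% of infarct cells, a mean of 38.8% ± 1.94 (SD, n = 3). Without thinning the shares were 6.72% and 60.2%. Cd44 was detected in 34.0% of thinned baseline cells and in 35.9%, 25.2% and 30.0% of infarct cells, so the infarct libraries again lay on both sides. Without thinning the Cd44 shares were 57.9% at baseline and 63.6% in the infarcts, a difference of opposite sign to that of the thinned shares, and the infarct cells were deeper. Thinning left out 6.233% to 12.18% of cells per library.

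B-cell-like cells, in which Spp1 should be near absent, were taken as the background level. They showed 6.39 CPM of Spp1 at baseline (2 UMIs in 81 cells, interval 0.773 to 23.1) and 55.7 and 51.2 CPM in infarct replicates 1 and 3, from 20 and 36 cells with a median of 2499 and 3406 UMIs. In infarct replicate 2 they showed 74.4 CPM in 7 cells once a further cell with 100 or more Spp1 UMIs was left out, and 3137 CPM with it. At 2000 UMIs Spp1 was found in 1 of 76 baseline B-cell-like cells and in 1 of 15, 2 of 6 and 3 of 25 in the infarct libraries. The infarct levels of non-classical monocyte-like cells, 38.9 to 57.4 CPM, were no higher than this and are read as background, and the means of the other 12 tested gates lay above it.

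Spp1 was concentrated in a small number of cells, and Cd44 was spread over many. In the infarct libraries 2.71%, 2.43% and 2.28% of cells held 50% of all Spp1 UMIs, and at baseline 19 cells (0.186%) did. For Cd44 the share of cells that held 50% of its UMIs was 12.2% to 12.7% in all 4 libraries. The upper 1% of cells for each gene held 29.4% to 34.4% of Spp1 UMIs in the infarcts and 84.5% at baseline, against 7.87% to 10.9% for Cd44. The highest number of UMIs in a cell was 1378 for Spp1 and 45 for Cd44.

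**Figure D2:**
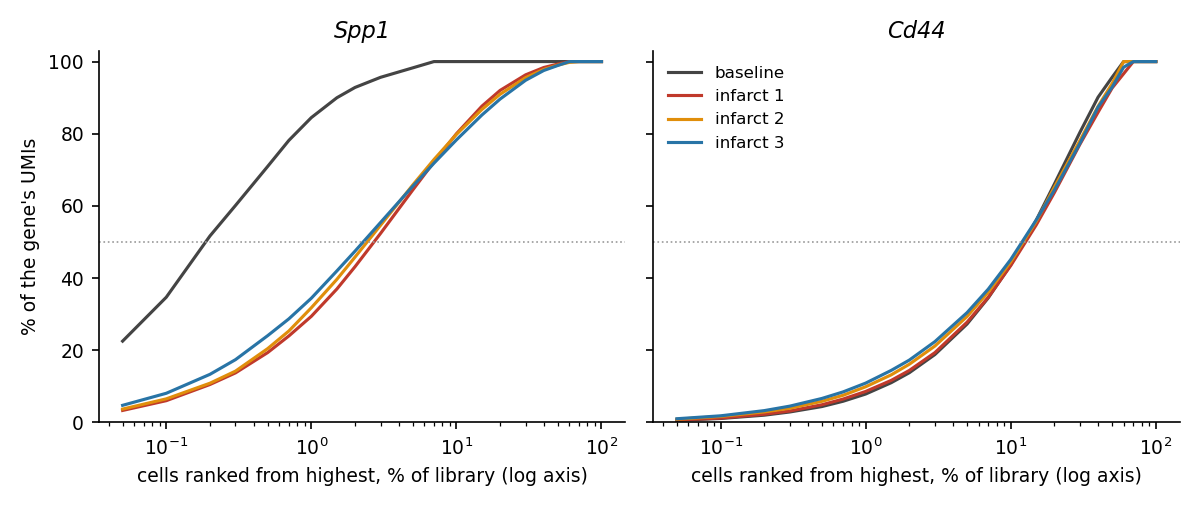
Share of all UMIs of Spp1 (left) and of Cd44 (right) held by the cells with the most of them, against the percent of cells counted from the highest on a log axis, 1 line per library; the dotted line marks 50%. For Spp1 the baseline line crosses it at 0.186% of cells and the infarct lines near 2.5%, and for Cd44 all 4 lines cross near 12%.

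Cells with 100 or more Spp1 UMIs numbered 284, 310 and 171 in the infarct libraries and 20 at baseline. They held 50.2%, 53.8% and 44.3% of infarct Spp1 UMIs. Of the infarct cells of this kind 60% were Gpnmb macrophage-like, 9.54% Saa3 Arg1 macrophage-like, 8.11% interferon-response-like and 6.67% proliferating-like. Genes that stood out in them, chosen after their values were seen and given without a test, were Gpnmb, a transmembrane glycoprotein of lipid-laden macrophages (1023 ± 301 against 128 ± 30.1 CPM in all other infarct cells, SD, n = 3), Fabp5, a fatty-acid carrier (3576 ± 261 against 496 ± 9.07 CPM), and Cd36, a scavenger receptor for oxidised lipids (325 ± 17.4 against 58.3 ± 19.8 CPM). Each was higher in 3 of 3 hearts, and so were Pdpn (89.3 against 7.63 CPM) and Ccl7 (484 against 99.5 CPM). Apoe (22742 ± 698 against 34392 ± 6471 CPM) and C1qa (3444 ± 187 against 5036 ± 784 CPM) were lower in 3 of 3. Spp1 is also abundant in the osteoclast, and of the osteoclast genes looked at only Atp6v0d2 was higher in 3 of 3 hearts. Atp6v0d2, a proton-pump subunit that takes part in osteoclast fusion, was at 50.9 ± 9.87 against 12.0 ± 8.17 CPM. The fusion gene Dcstamp was at 0.690 ± 1.02 against 2.71 ± 1.51 CPM. Acp5, which encodes tartrate-resistant acid phosphatase, was at 124 ± 10.2 against 122 ± 59.3 CPM. Nfatc1 (34.9 ± 5.94 against 54.4 ± 4.33 CPM) and Ocstamp (0.815 ± 0.760 against 2.61 ± 1.42 CPM) were higher in 0 of 3. Ctsk (48.5 ± 55.0 against 56.6 ± 71.0 CPM) and Mmp9 (10.1 ± 8.52 against 18.6 ± 17.9 CPM) were higher in 1 of 3. Cd44 in the cells with 100 or more Spp1 UMIs was 295, 270 and 257 CPM, against 297, 177 and 213 CPM in all others. It was higher in 2 of 3 hearts, and the groups overlapped.

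Within the infarct, Spp1 was higher than in the rest in macrophages that carry the Gpnmb list, a reparative macrophage signature with Trem2, Gdf15 and Fabp5. In Gpnmb macrophage-like cells Spp1 was at 2724, 2145 and 1859 CPM, and in all other gated cells of the same hearts at 809, 1091 and 573 CPM. The lowest of the former was above the highest of the latter. In edgeR's quasi-likelihood test on counts summed per heart, with Benjamini-Hochberg adjustment over all genes, the log2 fold change was 1.56 ± 0.15 (SE) with an adjusted p of 0.000527, in a comparison in which 22.9% of the 13201 genes tested passed the 0.01 threshold. Without infarct replicate 3 it was 1.44 with an adjusted p of 0.0103, just outside the threshold. Without the cells of 100 or more Spp1 UMIs it was 1.42 and the call was kept (adjusted p = 4.12e-05, edgeR). These cells were 21.8%, 31.1% and 28.7% of infarct cells and held 55.3%, 52.1% and 64.1% of Spp1 UMIs.

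The 2 other macrophage gates near the top of the order differed less from the rest. Cells that also passed the Gpnmb gate were kept in these gates and in the Saa3 Arg1 gate. The part of such cells in the Spp1 levels of these gates was not tested. Interferon-response-like cells, marked by Ifit and Cxcl10 transcripts, had 1695, 1965 and 1050 CPM of Spp1 against 1328, 1445 and 1053 CPM in the rest. Infarct replicate 3 showed no difference on this scale. With TMM normalization the log2 fold change was 0.39 ± 0.06 and passed the test (edgeR adjusted p = 0.000246, 11.8% of genes passing). With clusters in place of gates it was -0.18 and did not pass (adjusted p = 0.0302, edgeR). Proliferating-like cells had 1564, 2042 and 931 CPM against 1342, 1464 and 1060 CPM, and their log2 fold change of 0.12 ± 0.11 did not pass (edgeR adjusted p = 0.437, 24.5% of genes passing). Leaving out infarct replicate 3 brought it to 0.31 with an adjusted p of 0.00404, and leaving out infarct replicate 2 turned it to -0.02 (adjusted p = 0.919).

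Saa3 Arg1 macrophage-like cells had the highest mean of Spp1 and the widest spread. Their levels were 1813, 5560 and 1003 CPM, against 1293, 1443 and 1056 CPM in the rest, from 925, 102 and 559 cells. Infarct replicates 1 and 2 were above the rest and infarct replicate 3 was not. The log2 fold change of 0.73 ± 0.23 did not pass (edgeR adjusted p = 0.0227, 23.6% of genes passing), passed without infarct replicate 1 (0.85, adjusted p = 0.000113) or 3 (1.14, adjusted p = 2.62e-09), and fell to 0.20 without infarct replicate 2 (adjusted p = 0.0989). Cells with 100 or more Spp1 UMIs carried 57.35%, 80.2% and 53.65% of the Spp1 UMIs of this gate, and without them its levels were 832, 1365 and 487 CPM. With those cells removed from both sides the log2 fold change was 0.19 (adjusted p = 0.308, edgeR). The gate was also mixed. Its cells inside the cluster led by Saa3, Arg1 and Slpi had 1022, 3543 and 387 CPM of Spp1. Its cells in other clusters had 5463, 10950 and 3792 CPM. The cluster led by Saa3, Arg1 and Slpi was named classical monocyte-like by its markers.

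**Figure D3:**
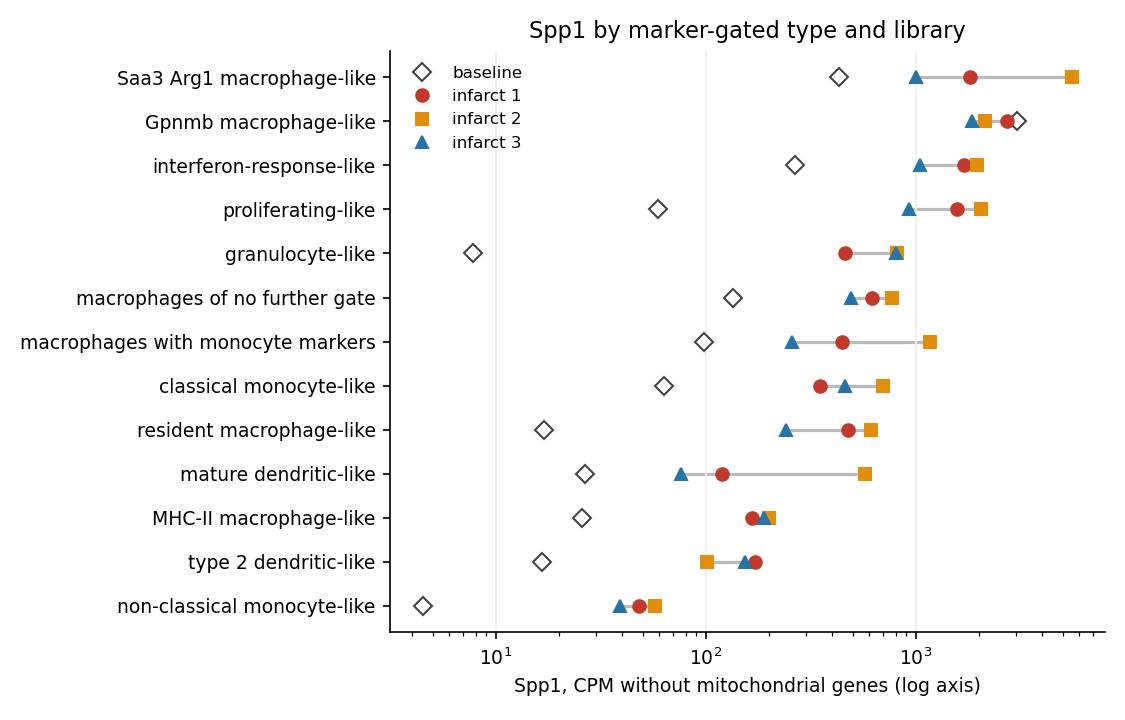
Spp1 level (CPM without mitochondrial genes, log axis) in the 13 gates with at least 20 cells in every infarct library, ordered by infarct mean; filled symbols are the 3 infarct hearts, the grey line their range, and the open diamond the baseline library. The open diamond lies left of all 3 infarct symbols in every gate except Gpnmb macrophage-like cells, where it lies at 3044 CPM to the right of them. Baseline points of mature dendritic-like and Saa3 Arg1 macrophage-like cells rest on 11 and 12 cells.

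Spp1 was lower than in the rest in 9 gates, in 3 of 3 hearts each. Among macrophages, those of no further gate were at 617, 768 and 492 CPM (log2 fold change -1.31, 18.7% of genes passing), those with monocyte markers at 446, 1165 and 257 CPM (-1.33, 24.4%), resident macrophage-like cells, marked by Lyve1, Cd163 and Folr2, at 473, 614 and 241 CPM (-1.76, 11.5%), and MHC-II macrophage-like cells at 167, 199 and 188 CPM (-2.77, 16.8%). The MHC-II gate had the narrowest spread of these. These 4 gates were not independent of the Gpnmb list. Cells with more than 1 Gpnmb-list marker were kept out of the MHC-II gate. Cells that passed the Gpnmb gate were kept out of the other 3. How far this set their lower Spp1 was not tested. Classical monocyte-like cells were at 349, 697 and 461 CPM (-1.40, 25.5%) and granulocyte-like cells at 458, 816 and 808 CPM (-1.06, 12.4%). Mature dendritic-like cells were at 119, 575 and 75.8 CPM (-2.61, 23.1%), where 1 of the 48 cells of infarct replicate 2 had 100 or more Spp1 UMIs, and type 2 dendritic-like cells at 171, 101 and 154 CPM (-3.24, 32%). Non-classical monocyte-like cells had the least, 48.1, 57.4 and 38.9 CPM (-4.85, 18.9%), no more than B-cell-like cells. All 9 passed in edgeR's test, with adjusted p from 0.000415 down to 2.47e-175.

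The levels ran down from Saa3 Arg1 and Gpnmb macrophage-like cells through interferon-response-like and proliferating-like cells to non-classical monocyte-like cells. Of the 12 pairs of neighbours in that order, 10 had overlapping ranges over the 3 hearts. The ranges did not overlap between proliferating-like and granulocyte-like cells, nor between type 2 dendritic-like and non-classical monocyte-like cells.

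Against baseline, Spp1 was higher in every gate that could be set side by side except Gpnmb macrophage-like cells. Of 11 gates with at least 20 cells also at baseline, all 3 infarct libraries were 2-fold or more above baseline in 10, by log2 ratios of 2.21 to 6.49, with no test. Resident macrophage-like cells were at 16.9 CPM at baseline (3150 cells) and at 473, 614 and 241 CPM in the infarcts (log2 ratio 4.71). Granulocyte-like cells, of which the Ly6G gate leaves few, gave the largest ratio, from 7.74 CPM at baseline (2 UMIs, interval 0.938 to 28.0) to 458, 816 and 808 CPM. Much of this came from 1 cell each in infarct replicates 2 and 3, which held 125 of 188 and 176 of 348 Spp1 UMIs. MHC-II macrophage-like cells went from 25.6 to a mean of 185 ± 16.8 CPM (2.85). In B-cell-like cells the level also stood higher in the infarct libraries, by the values given above, and the part of carried-over transcript in these differences was not tested. Gpnmb macrophage-like cells stood at 3044 CPM at baseline (interval 2973 to 3117, 147 cells) and all 3 infarct libraries were below that, with a log2 ratio of -0.44. At baseline these cells were 1.44% of all cells and held 68.8% of Spp1 UMIs. In the infarcts they were 21.8% to 31.1% of cells, and their median depth was 15192 UMIs at baseline against 9808 to 10189 in the infarcts.

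Cd44 followed another order, with monocytes and the Saa3 Arg1 gate at the top. Non-classical monocyte-like cells, the patrolling monocytes with Ace and Treml4, had 592, 638 and 553 CPM of Cd44 against 296, 178 and 213 CPM in the rest of the same hearts, a log2 fold change of 1.32 ± 0.11 (edgeR adjusted p = 2.03e-33). Saa3 Arg1 macrophage-like cells had 614, 581 and 470 CPM against 258, 174 and 195 CPM, a log2 fold change of 1.36 ± 0.09 (edgeR adjusted p = 1.14e-08). Neither gate overlapped the rest in any heart, and both calls held under every alternative run for them. Classical monocyte-like cells (618, 505 and 424 CPM, log2 fold change 1.28), granulocyte-like cells (590, 391 and 522 CPM, 1.01) and macrophages with monocyte markers (510, 374 and 379 CPM, 0.98) were also above the rest in 3 of 3 hearts and passed the test. The share of all genes that passed in these 5 comparisons was 12.4% to 25.5%.

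**Figure D4:**
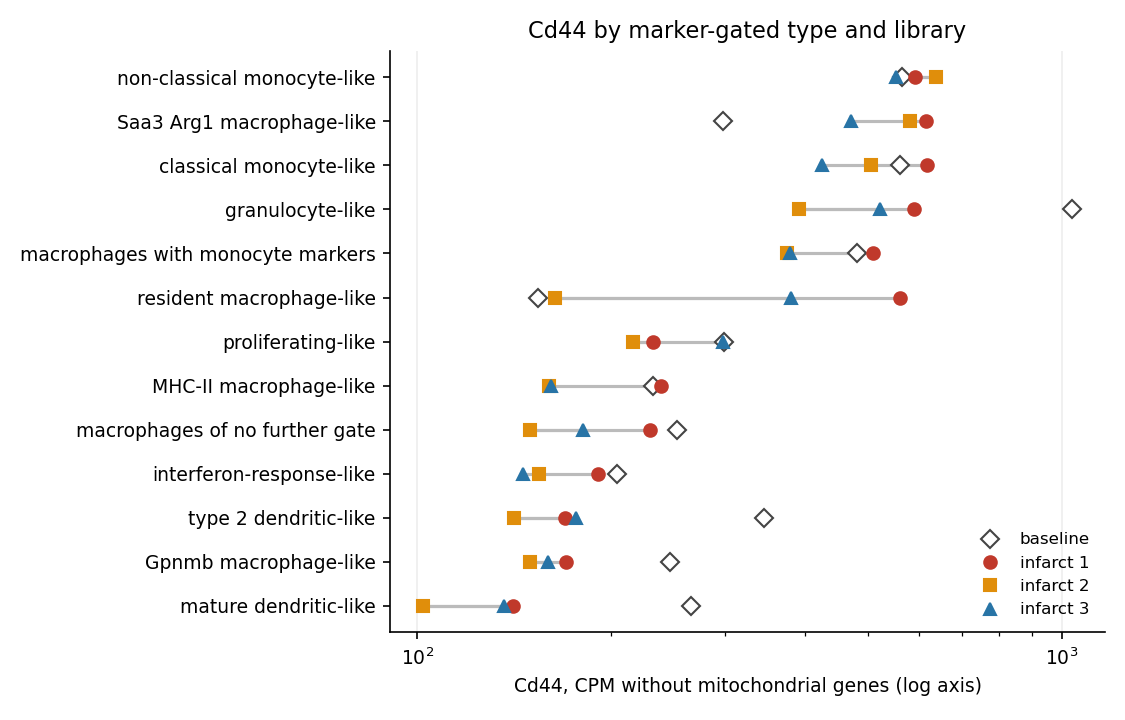
Cd44 level (CPM without mitochondrial genes, log axis) in the same 13 gates, ordered by infarct mean, with the symbols of the Spp1 plot. Monocyte-like, granulocyte-like and Saa3 Arg1 macrophage-like cells lie between 374 and 638 CPM in the infarct hearts together with the macrophages that carry monocyte markers, and Gpnmb macrophage-like cells lie at 149 to 170 CPM.

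Cd44 was lower than the rest in 6 gates, in 3 of 3 hearts each, by edgeR's test. The share of all genes that passed in these 6 comparisons was 11.8% to 32%. Gpnmb macrophage-like cells, where Spp1 was high, had 170, 149 and 159 CPM of Cd44 against 347, 198 and 247 CPM (log2 fold change -0.60 ± 0.10, adjusted p = 0.00476), a call that did not pass without infarct replicate 3 (-0.64, adjusted p = 0.0368). All 3 values lay below all 3 of the rest. Mature dendritic-like cells had 141, 102 and 136 CPM (-0.81), type 2 dendritic-like cells 170, 141 and 176 CPM (-0.51), macrophages of no further gate 229, 150 and 181 CPM (-0.38), interferon-response-like cells 191, 154 and 146 CPM (-0.37) and MHC-II macrophage-like cells 239, 160 and 161 CPM (-0.21). The calls for type 2 dendritic-like and interferon-response-like cells did not pass without infarct replicate 1 (adjusted p = 0.0122 and 0.0128), nor did that for MHC-II macrophage-like cells without infarct replicate 3 (0.0123, edgeR). Proliferating-like cells, at 232, 216 and 298.5 CPM, did not pass (0.10 ± 0.13, edgeR adjusted p = 0.604), passed without infarct replicate 1 (0.34, adjusted p = 0.00253) and turned to -0.08 without infarct replicate 3. Of the 12 neighbouring pairs in the order of Cd44 levels, 11 had overlapping ranges.

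Resident macrophage-like cells of the infarct were divided in their Cd44. They had 561, 164 and 380 CPM in the infarct libraries and 154 CPM at baseline, the only one of 11 gates in which all 3 infarct libraries were above baseline (log2 ratio 1.26). Against the rest of the infarct they were called higher (0.49 ± 0.12, edgeR adjusted p = 0.00161, 11.5% of genes passing), with 2 of 3 hearts higher and infarct replicate 2 lower. The call did not pass without infarct replicate 1 (0.28, adjusted p = 0.184) or 3 (0.34, adjusted p = 0.115). Of these cells 73.4%, 10.7% and 50% fell in the classical monocyte-like cluster led by Saa3, Arg1 and Slpi, against 1.40% at baseline. In that cluster their Cd44 was 711, 529 and 594 CPM, from 138, 13 and 85 cells. In the other clusters it was 108, 101 and 102.7 CPM, from 50, 108 and 85 cells. The groups did not overlap, and the values varied more between hearts inside the cluster than outside it. With the resident cluster in place of the gate, Cd44 was lower than in the rest (-0.98, adjusted p = 4.13e-09, edgeR). The same cluster also divided Cd44 within the MHC-II gate, at 475, 301 and 295 CPM inside it and 170, 149.5 and 152 CPM outside.

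The library levels of Cd44 had the order of the share of Saa3 Arg1 macrophage-like cells, and kept that order without them. In infarct replicates 1, 2 and 3 these cells made up 8.90%, 0.946% and 5.53% of cells, and Cd44 was 297, 181 and 215 CPM. In all other gated cells, which leave out cells of no gate and of more than 1 lineage, it was 258, 174 and 195 CPM. A link between share and level was not tested. Against baseline, Cd44 was below in all 3 infarct libraries in 6 of 11 gates (log2 ratios -1.09 to -0.27), and in no gate did all 3 reach 2-fold. Type 2 dendritic-like cells had the lowest ratio, from 346 CPM at baseline to a mean of 162 ± 18.7 CPM. Non-classical monocyte-like cells were at 565 CPM at baseline, inside the infarct range. TMM scaling, which moved the library ratio from -0.25 to 0.04, was not applied within gates, so the smaller of these differences depend on the scaling.

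Spp1 and Cd44 were called in opposite directions in 7 of 13 gates. Spp1 was lower in 9 and higher in 2, and Cd44 was lower in 6 and higher in 6. Some opposite calls would arise from these counts without a link between the genes. The Spp1 call in interferon-response-like cells and the Cd44 call in resident cells changed sign with clusters in place of gates. In 2 gates, the Gpnmb and interferon-response macrophages, Spp1 was higher and Cd44 lower, and in 5, the monocytes, granulocytes, resident macrophages and macrophages with monocyte markers, Spp1 was lower and Cd44 higher. In 4 gates both were lower, in none were both higher, and in the Saa3 Arg1 gate Cd44 was higher while Spp1 was not called. Over 50 sums of a gate in a library, in log2(CPM + 10), Pearson's r between the genes was -0.11 (37 infarct sums -0.12, 13 baseline sums -0.13). The sums of a library share its depth and its carried-over transcripts, so this is a description.

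Within macrophages, cells with much Spp1 did not have clearly more or less Cd44 than cells without it. Macrophages of 2000 UMIs or more were thinned to 2000, and those at or above the upper quartile of Spp1 within their library (2139, 2395 and 3323 cells with at least 2, 2 and 1 UMIs) were compared with those at 0 (4908, 5181 and 4868 cells), with Spp1 itself left out of the totals. Cd44 was 280, 175 and 200 CPM in Spp1-high cells and 315, 168 and 220 in Spp1-low cells. Infarct replicates 1 and 3 were lower in Spp1-high cells and infarct replicate 2 was higher, by less than the spread between hearts. The log2 fold change was -0.08 ± 0.06 (edgeR adjusted p = 0.405, against 6.81% of 10994 genes passing). It was -0.14 with any Spp1 against none (adjusted p = 0.0284) and 0.16 with the upper 10% of cells in place of the upper quartile (adjusted p = 0.149, edgeR), and neither passed.

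The relation was not a straight line. By number of Spp1 UMIs in a thinned cell, Cd44 was 315, 168 and 220 CPM at 0, reached its lowest value at 1 to 4 UMIs (251, 129 and 190), and was 314, 244 and 255 at 10 or more. In 2 of 3 hearts the highest bin was above the bin at 0. The share of Gpnmb macrophage-like cells rose over the same bins from 17.3%, 27.7% and 26.6% to 60.2%, 59.2% and 68.2%, and that of Saa3 Arg1 and monocyte-marker macrophages went from 24.1%, 6.04% and 12.1% to 17.1%, 8.05% and 7.74%. Within Gpnmb macrophage-like cells alone, Cd44 was 185, 150 and 178 in Spp1-high and 160, 143 and 143 in Spp1-low cells. It was higher in 3 of 3 hearts, and the log2 fold change of 0.20 ± 0.08 did not pass (edgeR adjusted p = 0.0614). Macrophages of no further gate behaved alike in size (266, 150 and 208 against 225, 143 and 182, log2 fold change 0.15 ± 0.06, adjusted p = 0.159). In Saa3 Arg1 macrophage-like cells the value was lower in 3 of 3 hearts (638, 780 and 401 against 700, 929 and 552) and did not pass (-0.24 ± 0.15, edgeR adjusted p = 0.803). The difference between gates was not tested.

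**Figure D5:**
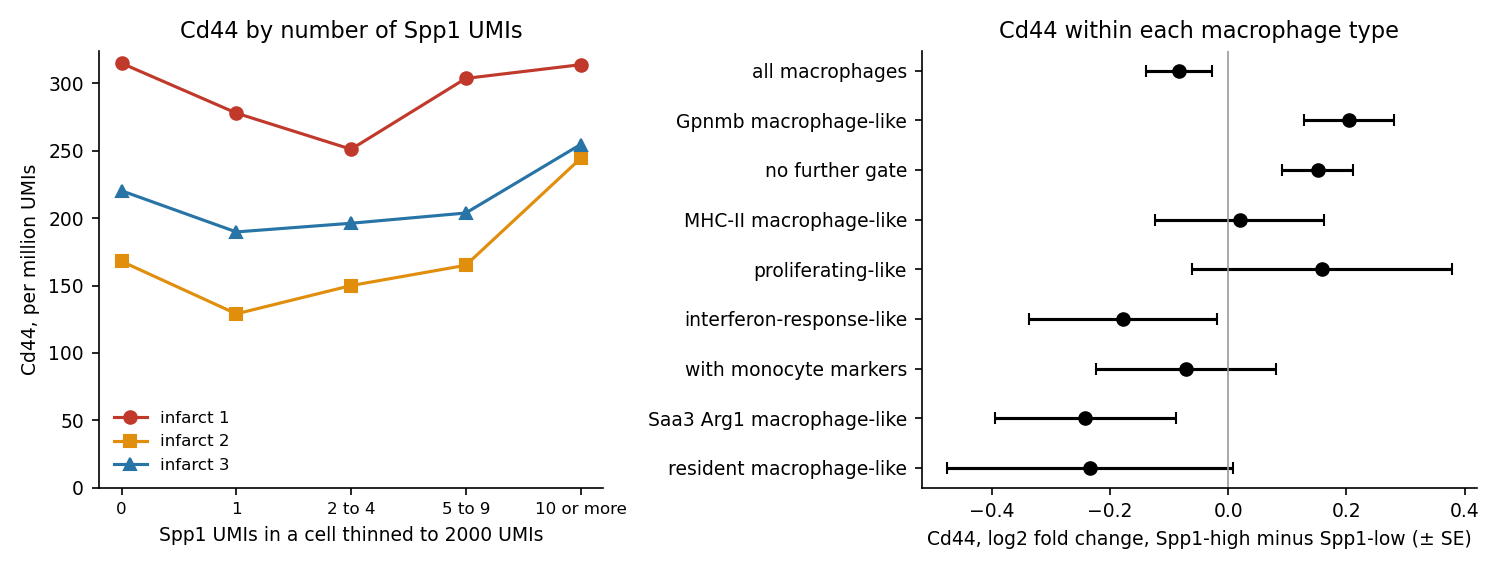
Left, Cd44 in CPM in infarct macrophages thinned to 2000 UMIs, by the number of Spp1 UMIs in the cell, 1 line per heart; right, log2 fold change of Cd44 between Spp1-high and Spp1-low cells over all macrophages and within each gate, with SE as whiskers (n = 3 hearts). The lines dip at 1 to 4 UMIs, and the changes within gates lie between -0.24 and 0.20.

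Spp1-high macrophages had more transcript of most genes of the Gpnmb list and less of most genes of the MHC-II and monocyte lists. Of the 749 genes that passed between Spp1-high and Spp1-low macrophages, those with the highest fold changes at 50 CPM or more were Gpnmb (351 ± 66.2 against 47.6 ± 12.3 CPM, log2 fold change 2.88), Fabp5 (2.23), Igf2r, the receptor that sorts lysosomal enzymes (1.84), Syngr1 (1.72), Adam8, a membrane metalloprotease (1.5), Il7r (1.30), the cathepsins Ctsd (1.23) and Ctsl (1.14), the elastase Mmp12 (1.07) and Cd36 (1.06). Those that were lowest were Plac8 (-2.02) and Ifitm6 (-1.5), which mark classical monocytes, the MHC class II genes H2-Eb1 (-1.49) and H2-Ab1 (-1.38), and the lectin Clec4b1 (-1.45). Each moved one way in 3 of 3 hearts with an edgeR adjusted p of at most 1.95e-05. Of the marker lists used for gating, 5 of 7 Gpnmb genes were higher, 6 of 6 MHC-II genes were lower, and 6 of 7 classical and 6 of 7 non-classical monocyte genes were lower. Over all genes 6.81% passed, with a median log2 fold change of -0.01. Of the 8 resident genes 7 were tested and 3 were lower.

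The other receptors of osteopontin moved in unlike ways. Of the 9 integrin chains listed besides Cd44, 8 were tested in Gpnmb macrophage-like cells, and 3 were higher and 2 lower than in the rest, where 22.9% of all genes passed, with a median log2 fold change of 0.10 against -0.01 over all genes. Higher were Itgb5 (345 ± 30.0 against 236 ± 14.1 CPM, log2 fold change 0.63, adjusted p = 0.00047), Itgav, its αv partner (102 ± 15.2 against 82.7 ± 5.25 CPM, 0.38), and Itga9 (0.33). Lower were Itga4, the chain of the α4 receptors (104 ± 14.8 against 156 ± 32.8 CPM, -0.49), and Itga8, under 2 CPM in either group. Itgb3 was at 0.405 ± 0.245 against 0.721 ± 0.0717 CPM and did not pass (edgeR adjusted p = 0.22), so the αvβ3 partner chain was barely detected. In the split by Spp1, 7 chains were tested, 2 were higher and 2 lower, and 6.81% of all genes passed. Itgav (0.37) and Itga5 (0.40) were higher and Itga4 (-0.30) and Itga8 were lower, each in 3 of 3 hearts. Between infarct and baseline, Itgb5 was at 270, 280 and 258 against 110 CPM and Itga4 at 155, 107 and 156 against 428 CPM, both 2-fold or more in all 3 libraries.

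Genes whose products modify or cleave osteopontin gave 2 higher of 6 tested in Gpnmb macrophage-like cells, where 22.9% of all genes passed, and the other 4 did not pass. The higher genes were Acp5, a phosphatase that acts on osteopontin (136 ± 26.3 against 91.0 ± 31.4 CPM, log2 fold change 0.70), and Mmp12 (78.2 ± 7.47 against 46.0 ± 9.61 CPM, 0.87), and the median of the list was 0.38. In Saa3 Arg1 macrophage-like cells 3 were higher and 2 lower, where 23.6% of all genes passed. There Fam20c, the secretory-pathway kinase that phosphorylates osteopontin (111 ± 25.8 against 32.4 ± 6.90 CPM, 1.72), and Tgm2, a crosslinking transglutaminase (157 ± 29.9 against 62.7 ± 15.2 CPM, 1.24), were higher and Acp5 (-1.07) was lower. In the split by Spp1, 3 of 6 tested were higher and 0 lower, where 6.81% of all genes passed. The higher ones were Fam20c (0.58), Tgm2 (0.36) and Mmp12 (1.07). The related genes Ibsp, Dmp1, Mepe and Dspp, from the same family of bone and tooth matrix proteins, were too low to be tested in any gate.

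Saa3 Arg1 macrophage-like cells, with high Cd44, also had high transcripts of several CD44 partners. In Saa3 Arg1 macrophage-like cells 5 of 6 tested genes for other CD44 ligands and the co-receptor were higher and 1 was lower, where 23.6% of all genes passed, with a median log2 fold change of 1.03 against -0.04 over all genes. Fn1, fibronectin, was at 6000 ± 413 against 573 ± 293 CPM (3.46), Mif at 464 ± 119 against 220 ± 49.7 CPM (1.01) and Srgn, the proteoglycan serglycin, at 1930 ± 412 against 884 ± 126 CPM (1.06), while the co-receptor Cd74, which is also in the MHC-II gate list, was lower (-1.75). In Gpnmb macrophage-like cells 3 of the 6 were lower, Cd74 and also Fn1 (-2.13) and Srgn (-0.93), with a median of -0.94. In non-classical monocyte-like cells, where Cd44 was as high, 1 of the 6 was higher and 4 were lower, with a median of -2.07 against -0.26 and 18.9% of all genes passing. Hyaluronan genes gave 4 higher and 2 lower of 8 in the Saa3 Arg1 gate, where Tmem2, a cell-surface hyaluronidase, was higher (29.2 ± 3.02 against 10.3 ± 1.29 CPM, 1.39), and 3 higher and 4 lower in the Gpnmb gate (22.9% of all genes passing), where the scavenger receptor Stab1 was higher (381 ± 21.4 against 238 ± 23.2 CPM, 0.77). Lyve1 and Vcan, which were higher in the Saa3 Arg1 gate and lower in the Gpnmb gate, are gate markers. Of 9 cytoskeletal linkers and sheddases tested, 3 were higher and 1 lower in the Saa3 Arg1 gate (23.6% of all genes passing), with a median of 0.14. Among the higher were Adam10 (267 ± 14.1 against 125 ± 17.3 CPM, 1.05) and Ezr (125 ± 16.2 against 69.0 ± 16.9 CPM, 0.80). In the Gpnmb gate 2 of the 9 were higher and 3 lower (22.9% of all genes passing). Ezr (-0.63) and Msn (-0.26) were among the lower there, and Mmp14, which sheds CD44 (136 ± 5.60 against 98.8 ± 8.19 CPM, 0.55), among the higher.

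The genes most like Spp1 over the 50 sums, in 15 gates and by Pearson's r of log2(CPM + 10), were Cstb (0.92), Ctsd (0.89), Ctsl (0.88), Trappc2l (0.88) and Prdx1 (0.88), of 5859 genes ranked. Among those most like Cd44 were Emilin2 (0.91), Mfsd14b (0.88), Gda (0.88) and Dhx38 (0.87). The leading genes of the lists did not overlap, but short lists out of 5859 genes seldom would, so this does not set Spp1 and Cd44 apart. Sums of a library share depth and carried-over transcript, and no p is given.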

How the data were processed

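Droplet 3' single-cell RNA-seq (10x kit v3.1) was deposited by the authors as raw UMI counts per gene and cell, made with Cell Ranger against mm10. The matrix header names version 3.1.0 and the submitters' processing notes 3.0.1. Doublets were gated by scatter at the sort.

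The study's own cell filter was applied (between 500 and 40000 UMIs, more than 200 genes). Levels are CPM of summed counts without mitochondrial genes. Counts were summed per heart and gate and tested with edgeR 4.0.16 (quasi-likelihood, TMM, library as a block, adjusted p under 0.01 over all genes), a gate against all other gated cells. Intervals and floors are 95% exact ones for counting error. The members, lists and markers were chosen with earlier results of these data known. How many markers a gate needs was set after seeing how often they were detected. Cells of more than 1 lineage or of no gate entered no sum of a gate or of the cells it was tested against. They were counted in the library levels, in the shares of cells and in the comparison of cells with 100 or more Spp1 UMIs. Named genes were the members, the fixed lists, the 5 genes most like each member (1 of those for Cd44 is not reported here), and, at 50 CPM or more, the 10 highest and 5 lowest changes between Spp1-high and Spp1-low macrophages that were the same way in 3 of 3 hearts. No doublets were removed in the main results. Scrublet's own threshold marked 0% to 1.973% of cells per library and had not worked in the infarct libraries, so the highest-scoring 8.095% to 8.625% were removed as an alternative. Alternatives were other scalings, DESeq2 1.42.0, filters, depths, gates, clusters (scanpy 1.11.5) and left-out hearts. On simulated counts for the Gpnmb comparison (13284 genes), 55.2% of 1.5-fold, 91% of 2-fold and 97% of 4-fold changes were recovered. For the Spp1 split (10957 genes) the shares were 41.8%, 86.6% and 100%. The simulation gave every gene the same small spread and left genes of low mean count unchanged. Recovery may be lower for genes that vary more between hearts or have few counts.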

Additional observations from a re-analysis of the deposited data

Results flagged for a closer look

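In 4 places Spp1 or Cd44 moved apart from the other gates or appeared in cells that entered no comparison between gates. With 1 baseline library none of these differences was tested.

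Spp1 in Gpnmb macrophage-like cells went the other way from 10 other gates: the log2 ratio of the infarct mean over baseline was -0.44, with all 3 infarct libraries below the baseline value.

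Cd44 in resident macrophage-like cells went the other way from 6 gates: the log2 ratio was 1.26, with all 3 infarct libraries above baseline.

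Cells that passed no gate, shallow cells with a median of 978 UMIs at baseline and 1327 to 2510 in the infarcts, had a log2 ratio of 5.18 for Spp1 (54.8 CPM at baseline, 1555, 3026 and 1377 CPM in the infarcts). Of them 26 infarct cells had 100 or more Spp1 UMIs. The leading genes of the infarct cells were haemoglobin genes followed by Ctsk and Mmp9.

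Cells with markers of more than 1 lineage, 65 at baseline and 58 to 98 per infarct library, had a log2 ratio of 6.24 for Spp1 (15.2 CPM at baseline from 11 UMIs, and 497 to 2181 CPM in the infarcts). Doublets and carried-over transcript in them were not tested.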

How the results depend on the processing

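Of the 26 results by gate, 9 kept their direction and their side of the threshold under every alternative run. No paired analysis was possible because baseline has 1 library, and the library block of the infarct comparisons is the heart itself.

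Without the library block (replaced by none), calls that no longer passed were Cd44 in Gpnmb (-0.64), MHC-II (-0.21), granulocyte-like (1.01), interferon-response-like (-0.39), mature dendritic-like (-0.77), type 2 dendritic-like (-0.53), resident (0.58) cells and macrophages of no further gate (-0.39), and Spp1 in granulocyte-like (-1.05), interferon-response-like (0.43), resident (-1.69) cells and macrophages with monocyte markers (-1.07). DESeq2's Wald test lost Cd44 in MHC-II (-0.20) and resident (0.47) cells and Spp1 in macrophages with monocyte markers (-1.33). With 1 more marker required, Cd44 in MHC-II cells was -0.0317, and Spp1 turned to -0.0409 in Saa3 Arg1 and -0.0238 in proliferating-like cells. With clusters in place of gates, Spp1 did not pass (-1.06) in the classical monocyte-like cluster, which is led by Saa3, Arg1 and Slpi. In the same run Spp1 in interferon-response-like cells turned to -0.18. Cd44 turned to -0.17 in proliferating-like and to -0.98 in resident cells. Thinning to 2000 UMIs made Spp1 in Saa3 Arg1 cells pass (0.73) and Cd44 in resident cells not (0.39), as did removing doublets (0.47). No filter on low counts made Spp1 in Saa3 Arg1 cells pass (0.70). Without cells of 100 or more Spp1 UMIs, an alternative chosen after seeing the data, Spp1 in proliferating-like cells turned to -0.15. Causes were not tested.

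Leaving out each heart in turn gave log2 changes of 1.42 to 1.84 for Spp1 and -0.72 to -0.44 for Cd44 in Gpnmb cells, 0.20 to 1.14 for Spp1 in Saa3 Arg1 cells, -0.0249 to 0.31 for Spp1 and -0.079 to 0.34 for Cd44 in proliferating-like cells, and for Cd44 -0.28 to -0.15 in MHC-II, -0.50 to -0.28 in interferon-response-like, 0.28 to 0.77 in resident and -0.60 to -0.33 in type 2 dendritic-like cells. Each of these crossed the threshold for at least 1 left-out heart.

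The Cd44 change between Spp1-high and Spp1-low macrophages turned positive with the upper 10% of cells (0.16), in Gpnmb macrophages only (0.21), at 1000 UMIs (0.0539) and, in alternatives chosen after seeing the data, in macrophages of no further gate (0.15), MHC-II (0.019) and proliferating-like (0.16) cells and without Saa3 Arg1 and monocyte-marker macrophages (0.0535). None passed. The genes called there numbered 749, against 317 with DESeq2, 50 without the block, 499 without infarct replicate 1, 1141 with the upper 10% and 1619 at 4000 UMIs. By gate, the count of called genes went from 0.0668 to 0.881 times the main one without the block, from 0.423 to 1.01 times with DESeq2 and from 0.298 to 1.01 times without infarct replicate 3.

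The Spp1 ratio of infarct over baseline moved to 3.42 with TMM, 4.01 as a mean of each cell's CPM and 3.92 at 2000 UMIs. Shares of cells depend on depth: unthinned, at 1000 and at 4000 UMIs, Spp1 was in 60.2%, 28.7% and 50.4% of infarct and 6.72%, 2.19% and 5.74% of baseline cells, and Cd44 in 63.6%, 18.6% and 46.2% of infarct and 57.9%, 20.1% and 51.2% of baseline cells.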

Other observations

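Gates that fell under 20 cells in any of the infarcts entered no test. Type 1 dendritic-like cells, the cross-presenting dendritic cells with Xcr1 and Clec9a, had 57.4 CPM of Spp1 at baseline (19 cells) and a mean of 323 ± 234 CPM (SD, n = 3) in 6 to 15 infarct cells per library, and 309 CPM of Cd44 at baseline against 149 ± 34.3 CPM. Fibroblast-like cells, a source of osteopontin in other settings, had 0 to 48.2 CPM of Spp1 in the infarct libraries from 4 to 28 cells, no more than B-cell-like cells.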
